A study of Mus musculus with 10 samples.

Results

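The 10 genes described here encode the invariant chains of the T cell receptor (TCR) complex, its coreceptors, and a few proteins that act beside them on the T cell: Cd3d, Cd3e, Cd3g, Cd247, Cd8a, Cd8b1, Cd4, Cd2, Cd5 and Lck. They were chosen by symbol, through the Ensembl mouse gene identifiers of the count matrix, and not by a threshold on measured values. Earlier results of these data were known when the choice was made. All 10 were among the 37417 genes of the matrix, and all 10 passed the filter on low counts together with 15289 other genes, which gave 15299 genes tested.

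Bulk RNA-seq was done on 10 subcutaneous (s.c.) tumors that Panc02, a pancreatic cancer cell line of the mouse, formed in wild type C57BL/6J mice aged 12 weeks and collected on day 16 after injection. The guide RNA of the injected cells targeted Cda (cytidine deaminase) in 5 tumors, called sgCda, and was a nontargeting guide in the other 5, called sgNT. Both lines had also received a doxycycline-inducible Cas9 by lentivirus and were drug-selected, so guide and nuclease were in the cancer cells and not in the host, which supplies the T cells. The tumors were compared to ask how cancer cell Cda targeting affects the tumor microenvironment.

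The αβ TCR has no signalling part of its own. It reaches the cell surface only together with the CD3δ, CD3ε, CD3γ and CD3ζ chains. The cytoplasmic tyrosine motifs of these chains are phosphorylated when the receptor binds peptide on an MHC molecule. CD8 (a dimer of CD8α and CD8β on most conventional cytotoxic T cells) binds MHC class I, CD4 binds MHC class II, and both bring the kinase LCK to the receptor. CD2 is an adhesion receptor that strengthens the contact with the other cell, and CD5 dampens TCR signals. CD3δ, CD3ε and CD3γ are used as general markers of T cells in tumors, whereas CD4 is also found on some myeloid cells and CD8α on some dendritic cells.

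Library depth ran from 28051907 to 39484964 counts assigned to genes, and each of the 10 genes had 190 to 7646 counts per tumor. Levels are in edgeR's unit CPM, the count of a gene relative to its library size after scaling by trimmed mean of M values (TMM), in which 3 counts correspond to 0.0760 to 0.107 CPM. The targeted gene Cda had 12.1 ± 1.76 CPM (SD, n = 5) in sgNT and 9.77 ± 2.34 CPM (SD, n = 5) in sgCda tumors. Its log2 fold change was −0.30 (SE 0.17, unadjusted p = 0.0963 by edgeR) with overlapping groups, so Cda mRNA in these 10 bulk samples did not separate the 2 labels. Without the tumor sgCda 3 the estimate was −0.39, with an unadjusted p under 0.05 by edgeR but not an adjusted one. The paper checked targeting in the cell lines by RT–qPCR and western blot. It also reports Cda expression in endothelial cells and some in fibroblasts of the tumors. The epithelial markers Krt8 and Krt18 were abundant in both groups (Krt8 476 and 452 CPM on average), whereas Epcam stood at 1.03 and 1.77 CPM. The tumor sgCda 3 stood apart: its 8 skeletal muscle markers summed to 2070 CPM, against 5.60 to 535 CPM in the other 9 tumors, and the main results are given with and without it. The library of sgCda 4 had the fewest assigned counts, 28051907. Its share of reads that overlapped no annotated feature was 18.4%, against 10.3% to 14.9% in the other 9 tumors. The labels do not say how the tumors were batched, so p-values measure only the spread between these samples.

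The genes of the CD3 chains lie close together. Cd3g (chr9:44969572-44980431, minus strand) and Cd3d (chr9:44981786-44987339, plus strand) are transcribed away from each other with 1354 bp between them, and Cd3e (chr9:44998740-45009627, minus strand) follows 11400 bp beyond Cd3d (GRCm38). Cd8b1 (chr6:71322788-71337494) and Cd8a (chr6:71373427-71379173) lie in tandem on the plus strand, 35932 bp apart. The others are single: Cd247 at chr1:165788681-165877277, Cd4 at chr6:124864692-124888221, Cd2 at chr3:101275899-101287939, Cd5 at chr19:10717116-10739002 and Lck at chr4:129548344-129573641.

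RefSeq promoters (build GRCm38.p6, 250 bases before to 50 bases after the start) were at hand for 7 of the 10 genes, with 2 promoters for Lck. Those of Cd8b1, Cd4 and Cd2 were not analysed here. The promoters of the CD3 chains and of Cd8a are printed 5′ to 3′. Those of Cd5 and Lck were searched in the same way and are not printed. Capitals mark a match on either strand to 1 of 3 motifs. The first is CAGGTG, an E-box of the kind bound by E proteins, which reads as its reverse complement on the other strand. The second is CAGGAAG, a motif of the ETS family of transcription factors, several of which act in lymphocytes. The third is AGATAA, a motif of the GATA family.
Cd3d promoter: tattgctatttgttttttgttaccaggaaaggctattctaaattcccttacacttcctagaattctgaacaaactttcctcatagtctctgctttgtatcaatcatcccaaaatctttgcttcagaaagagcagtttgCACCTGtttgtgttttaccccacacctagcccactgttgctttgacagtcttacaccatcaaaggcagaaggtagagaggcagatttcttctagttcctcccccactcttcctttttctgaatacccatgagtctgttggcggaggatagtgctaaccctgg
Cd3e promoter: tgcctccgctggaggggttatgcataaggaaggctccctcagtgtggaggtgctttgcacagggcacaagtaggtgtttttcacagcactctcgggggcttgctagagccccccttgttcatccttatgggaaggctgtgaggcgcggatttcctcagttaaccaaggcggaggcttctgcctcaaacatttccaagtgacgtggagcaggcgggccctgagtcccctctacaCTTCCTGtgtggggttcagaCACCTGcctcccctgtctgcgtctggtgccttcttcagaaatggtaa
Cd3g promoter: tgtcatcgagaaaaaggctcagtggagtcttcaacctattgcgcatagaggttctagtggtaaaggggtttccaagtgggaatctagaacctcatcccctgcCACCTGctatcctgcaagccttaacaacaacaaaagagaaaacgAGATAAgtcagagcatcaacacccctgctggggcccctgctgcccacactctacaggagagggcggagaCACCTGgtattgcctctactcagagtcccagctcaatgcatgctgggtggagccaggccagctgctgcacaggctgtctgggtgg
Cd247 promoter: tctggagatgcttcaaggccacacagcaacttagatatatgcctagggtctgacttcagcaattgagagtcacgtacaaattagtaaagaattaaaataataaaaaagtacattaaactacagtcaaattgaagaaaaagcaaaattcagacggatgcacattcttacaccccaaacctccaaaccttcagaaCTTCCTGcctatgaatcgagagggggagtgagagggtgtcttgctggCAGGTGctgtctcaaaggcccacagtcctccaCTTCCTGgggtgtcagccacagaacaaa
Cd8a promoter: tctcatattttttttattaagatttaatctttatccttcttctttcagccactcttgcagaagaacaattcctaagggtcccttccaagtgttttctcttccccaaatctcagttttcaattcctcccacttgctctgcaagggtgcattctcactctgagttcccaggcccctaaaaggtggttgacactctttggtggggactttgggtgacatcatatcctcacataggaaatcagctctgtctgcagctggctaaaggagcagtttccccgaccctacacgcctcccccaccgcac

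These windows are chr9:44981536-44981835 for Cd3d, chr9:45009562-45009861 for Cd3e, chr9:44980382-44980681 for Cd3g, chr1:165788431-165788730 for Cd247 and chr6:71373177-71373476 for Cd8a, each read on the strand of its gene. CAGGTG occurred in 7 of the 8 promoters, all but that of Cd8a, and in 20.2% of the 32851 mouse promoters searched. CAGGAAG occurred in 5 of 8 (Cd3e, Cd247, Cd5 and both of Lck) against 13.3% of all promoters. AGATAA or TGATAA was found in the promoter of Cd3g alone (18.6% of all promoters), TGTGGT (a RUNX motif) in one of the Lck promoters alone (16.8%), and TATAAA in none of the 8 (13.6%). None of the capital stretches overlapped another motif in the sequences shown. The promoter of Cd8a held none of the motifs searched. These are matches of letters and say nothing about which factors bind there.

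The first question was how strongly the genes of the complex were expressed in each tumor and whether sgCda tumors differed from sgNT tumors. No member differed: 0 of 10 had an adjusted p under 0.05 by edgeR's quasi-likelihood test, 0 of 10 had an unadjusted p under 0.05, and in 0 of 10 did the groups fail to overlap. Over all 15299 genes tested, percent called was 0 at an adjusted p under 0.05, 2.5 (382 genes) at an unadjusted p under 0.05, and 0.601 for groups that did not overlap; DESeq2's Wald test and limma-voom also called 0 genes at an adjusted p under 0.05, with 433 and 317 genes at an unadjusted p under 0.05. The 10 estimates were all above 0, from 0.01 (Cd247) to 0.27 (Cd2) on the log2 scale, with a median of 0.11 against 0.01 over all genes tested. Of the 15299 genes tested, 8094 had an estimate above 0. Levels of 9 of the 10 genes moved together between tumors, so their signs are not separate observations. Without the tumor sgCda 3 the median was −0.21 and 9 of the 10 estimates were below 0, all but that of Cd4, and still 0 had an unadjusted p under 0.05. With limma-voom, and with the replicate number as a block, 5 of the 10 estimates (Cd3g, Cd247, Cd8a, Cd8b1 and Cd5) were below 0, so no direction is read from these estimates. In bulk tissue, fewer T cells and less RNA per T cell cannot be told apart.

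CD3δ, CD3ε and CD3γ form the dimers that hold the receptor at the surface. Cd3e measured 28.5, 28.8, 41.1, 26.5 and 26.0 CPM in sgNT tumors 1 to 5 and 29.1, 38.3, 56.4, 22.8 and 17.4 CPM in sgCda tumors 1 to 5. The lowest and the highest tumor were both sgCda, and the sgNT values lay between them. For Cd3e edgeR gave 0.12 on the log2 scale (SE 0.28, 95% CI −0.49 to 0.73, adjusted p = 0.9996), an interval from 0.714-fold to 1.66-fold.

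Cd3g was the most abundant of the 3, with 58.5, 58.3, 83.3, 54.2 and 51.2 CPM in sgNT tumors and 56.7, 73.5, 121, 38.8 and 36.5 CPM in sgCda tumors. Cd3d measured 26.7, 21.95, 48.4, 31.9 and 26.2 CPM in sgNT tumors and 29.6, 38.2, 62.8, 17.4 and 19.97 CPM in sgCda tumors. The same tumor, sgCda 3, was highest for both, sgNT 3 was second for both, and sgCda 4 and sgCda 5 were the lowest pair for both. The log2 fold changes were 0.10 (SE 0.30) for Cd3g and 0.11 (SE 0.34) for Cd3d.

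CD3ζ, the product of Cd247, carries most of the signalling motifs of the complex. Cd247 had 12.8, 11.7, 21.0, 15.7 and 12.6 CPM in sgNT tumors and 13.7, 16.8, 24.7, 10.2 and 9.05 CPM in sgCda tumors. Again sgCda 3 was highest, sgNT 3 second and sgCda 5 lowest, and its log2 fold change was 0.01 (SE 0.27). Its exons share 3007 bp with Pou2f1 on the opposite strand, and the strand setting of the counting is not given in the sources used here, so its counts are less certain than those of Cd3d and Cd3g, whose exons overlap no other gene.

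The coreceptor genes did not all follow the CD3 chains. Cd8a had 92.8, 93.1, 135, 91.1 and 78.5 CPM in sgNT tumors and 90.1, 112, 214, 55.0 and 54.9 CPM in sgCda tumors. Cd8b1 had 35.9, 37.7, 56.0, 39.5 and 33.5 CPM in sgNT tumors and 34.2, 45.3, 94.2, 22.3 and 22.9 CPM in sgCda tumors. Both CD8 genes had the same highest and second highest tumor as the CD3 chains, and sgCda 4 and sgCda 5 lay below every sgNT tumor.

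Cd4 had 8.50, 8.31, 10.4, 8.32 and 9.65 CPM in sgNT tumors and 12.1, 10.5, 8.59, 9.85 and 7.88 CPM in sgCda tumors. Here sgCda 1 was highest, sgCda 3 lay below the sgNT mean of 9.04 CPM, and sgCda 4 lay above 4 of the 5 sgNT tumors. The difference on the log2 scale was 0.11 (SE 0.13, 95% CI −0.18 to 0.40, unadjusted p = 0.406 by edgeR), the narrowest interval of the 10 genes.

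CD2 and CD5 mark most T cells, CD2 also NK cells. Cd2 measured 18.7, 16.3, 27.7, 25.3 and 20.8 CPM in sgNT tumors and 21.6, 26.9, 50.02, 15.4 and 17.3 CPM in sgCda tumors. Its estimate was the largest of the 10, 0.27 (SE 0.30, unadjusted p = 0.381 by edgeR), and it was −0.10 without sgCda 3. Cd5 measured 10.4, 9.35, 11.9, 10.2 and 11.01 CPM in sgNT tumors, a narrow range, and 11.3, 11.6, 17.0, 6.73 and 7.50 CPM in sgCda tumors.

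Of the 10 genes, Cd5 had the widest contrast in spread, with an SD of log2 CPM of 0.13 in sgNT and 0.53 in sgCda tumors. LCK is the kinase that phosphorylates the CD3 chains. Lck had 51.6, 45.2, 72.5, 55.8 and 50.3 CPM in sgNT tumors and 56.2, 68.8, 99.6, 39.0 and 37.0 CPM in sgCda tumors, with a log2 fold change of 0.13 (SE 0.25). The highest and lowest tumors were those of the CD3 chains.

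**Figure D1:**
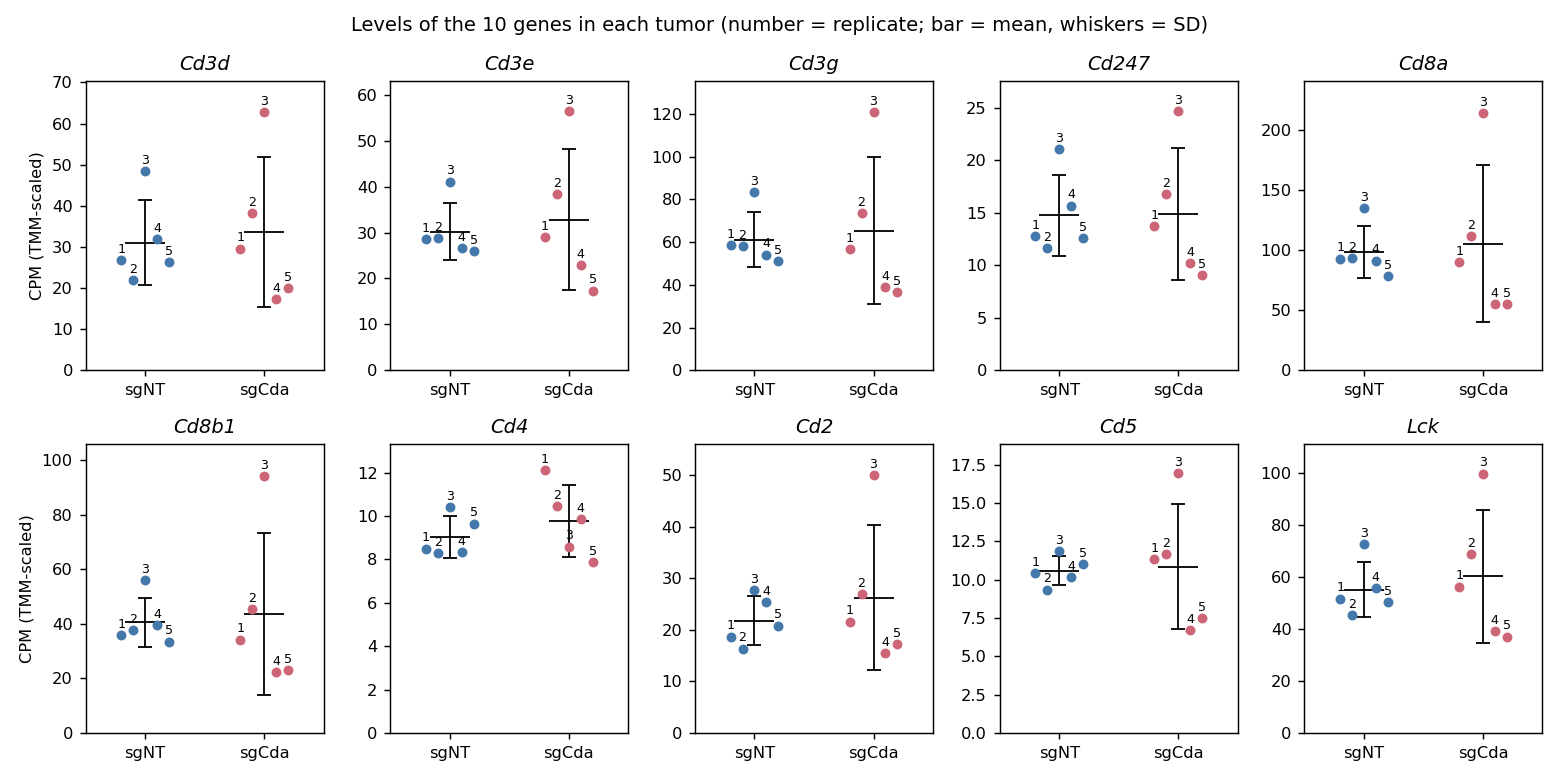
Level of each of the 10 genes in CPM (vertical axis, from 0) in the 5 sgNT and 5 sgCda tumors; points are tumors with their replicate number, the bar is the mean and the whiskers the SD. In 9 panels sgCda 3 is the highest point, and in the Cd4 panel it is sgCda 1, at 12.1 CPM.

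**Figure D2:**
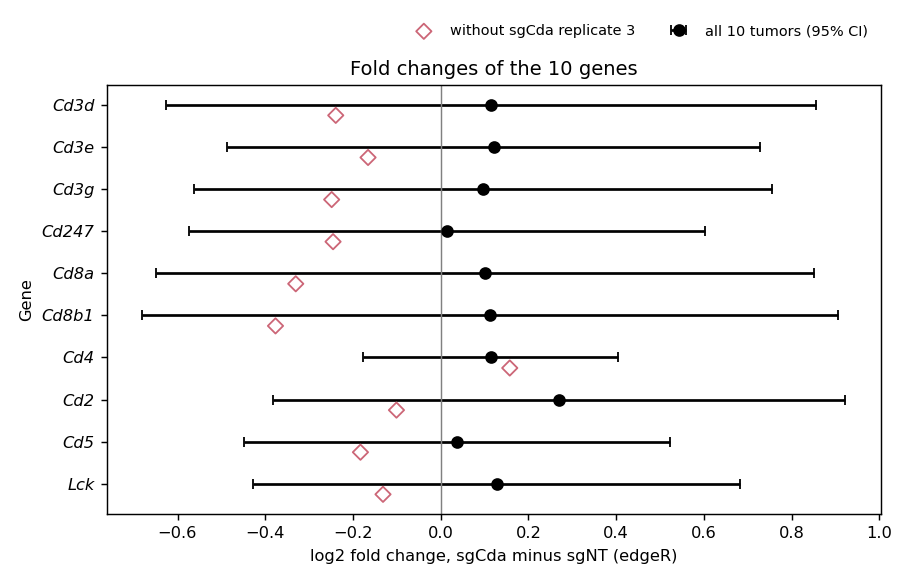
The log2 fold change of each gene, sgCda minus sgNT, from edgeR with all 10 tumors (filled circles, 95% CI) and without sgCda 3 (open diamonds). All 10 intervals include 0, and every diamond but that of Cd4 lies below 0.

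Across the 10 tumors, the levels of 9 of the 10 genes moved as a block. Relative to the mean of the sgNT tumors, the 9 genes other than Cd4 had a median of 1.98 in sgCda 3 (range 1.60 to 2.32), 1.36 in sgNT 3 and 1.20 in sgCda 2, but 0.637 in sgCda 4 and 0.614 in sgCda 5. The tumor sgCda 3 was the highest in 9 of 10 genes, sgNT 3 was second in 9, and sgCda 4 and sgCda 5 were the lowest pair in 8, all but Cd4 and Cd2. The library of sgCda 4 was the shallowest, and whether this bears on its levels was not tested. In sgCda 3, Cd4 stood at 0.950 of the sgNT mean.

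**Figure D3:**
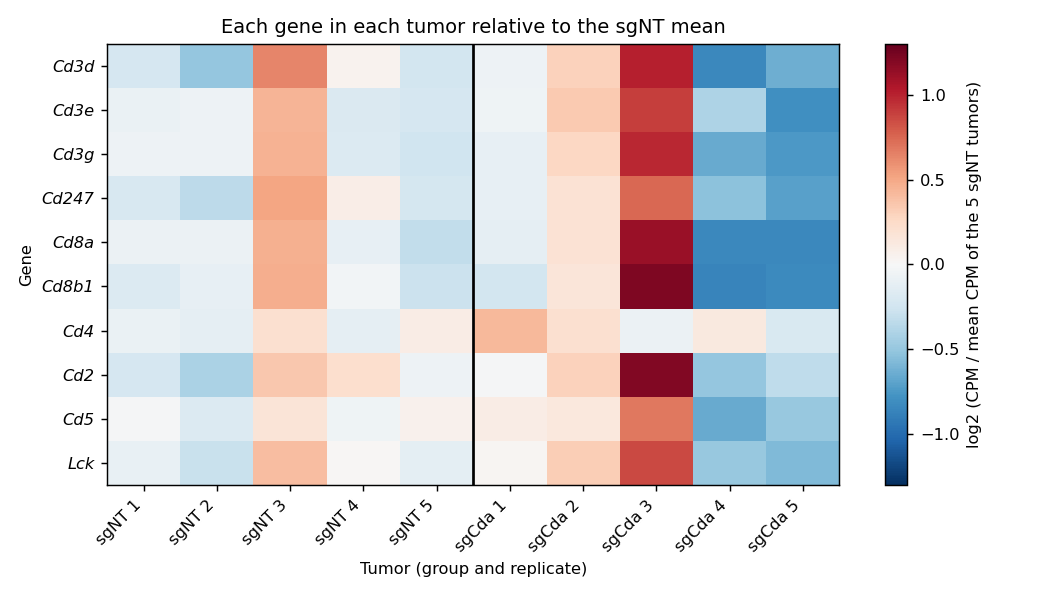
Level of each gene (rows) in each tumor (columns) as log2 of its CPM over the mean CPM of the 5 sgNT tumors; red is above and blue below that mean, and the line parts the groups. The column of sgCda 3 is red in 9 rows and the columns of sgCda 4 and sgCda 5 are blue in the same 9, while the Cd4 row stays between 0.872 and 1.34 of the sgNT mean.

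With log2 CPM over 10 tumors, 8 genes were correlated with Cd3e: Cd3g had Pearson r = 0.98 (Spearman rho = 0.95; adjusted permutation p = 9e-05, from an unadjusted 1e-05, the smallest the resampling can give), Cd8a r = 0.97, Lck r = 0.96, Cd8b1 r = 0.95, Cd247 r = 0.94, Cd3d r = 0.91, Cd5 r = 0.89 and Cd2 r = 0.86, with adjusted permutation p of at most 0.00181. Spearman rho of these 8 ran from 0.78 to 0.95. Without the 2 tumors farthest from the median of Cd3e, sgCda 3 and sgCda 5, r ran from 0.71 (Cd5) to 0.97 (Cd3g). Cd4 had r = 0.24 with Cd3e (rho = 0.47; permutation p = 0.497 for r). Over the 36 pairs of the 9 genes other than Cd4 r was 0.86 to 1.0, with a median of 0.95, while the 9 pairs with Cd4 reached at most 0.24. The relation of Cd4 with Cd3e depended on single tumors: r was 0.54 without sgCda 3 and −0.013 without sgCda 5.

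**Figure D4:**
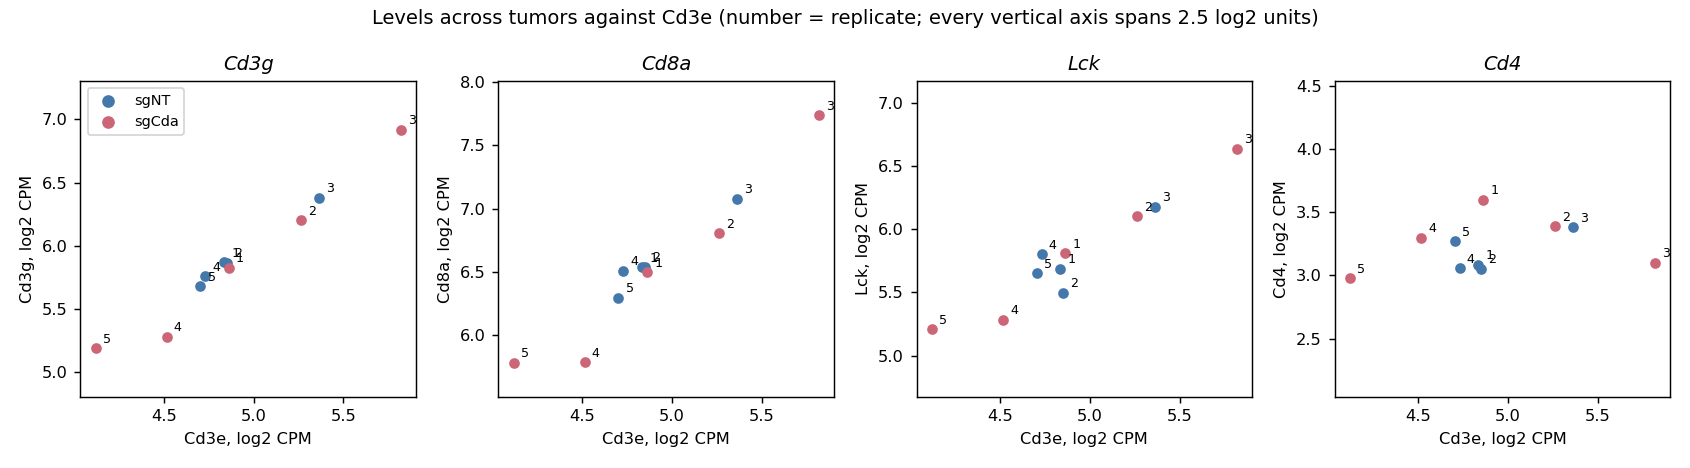
Log2 CPM of Cd3g, Cd8a, Lck and Cd4 (vertical axes, each spanning 2.5 units) against log2 CPM of Cd3e in the 10 tumors, numbered by replicate and coloured by group. The first 3 panels form a line (r 0.98, 0.97 and 0.96) and the Cd4 panel does not (r 0.24).

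Ratios within a tumor do not depend on library scaling, and 8 were compared between groups with an exact permutation test (two-sided, every assignment of 5 and 5 tumors), whose smallest possible p is 0.00794. None differed between sgCda and sgNT tumors, with exact p from 0.444 to 0.825 and adjusted p of 0.825 over the 8 ratios. Both chains of CD8 kept a narrow ratio in all 10 tumors: counts of Cd8a over Cd8b1 were 2.31 to 2.58 in sgNT and 2.27 to 2.63 in sgCda tumors, and the log2 difference was 0.01 (95% CI −0.09 to 0.12). Cd8a over Cd3e was 3.01 to 3.43 in sgNT tumors, and 2.41 to 3.79 in sgCda tumors. Lck over Cd3e and Cd247 over Cd3e were likewise within 1.57 to 2.13 and 0.405 to 0.591 in all tumors.

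The ratios to Cd4 varied most. Cd8a over Cd4 was 10.9, 11.2, 12.9, 10.9 and 8.12 in sgNT tumors and 7.42, 10.7, 24.9, 5.58 and 6.96 in sgCda tumors. With all 10 tumors the log2 difference was −0.18 (95% CI −1.08 to 0.73, exact p = 0.675), an interval too wide to bound the groups closely. Without sgCda 3, the 4 remaining sgCda tumors had a difference of −0.52 with an unadjusted exact permutation p of 0.0317 (adjusted p = 0.169 over the 8 ratios), and Cd8b1 over Cd4 had −0.56 with an unadjusted exact permutation p of 0.0476 and the same adjusted p. The size of the CD8 to CD4 difference thus turned on sgCda 3, the tumor with 24.9 and 10.95 for the 2 ratios, and without sgCda 4 the differences were 0.016 and 0.0053.

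**Figure D5:**
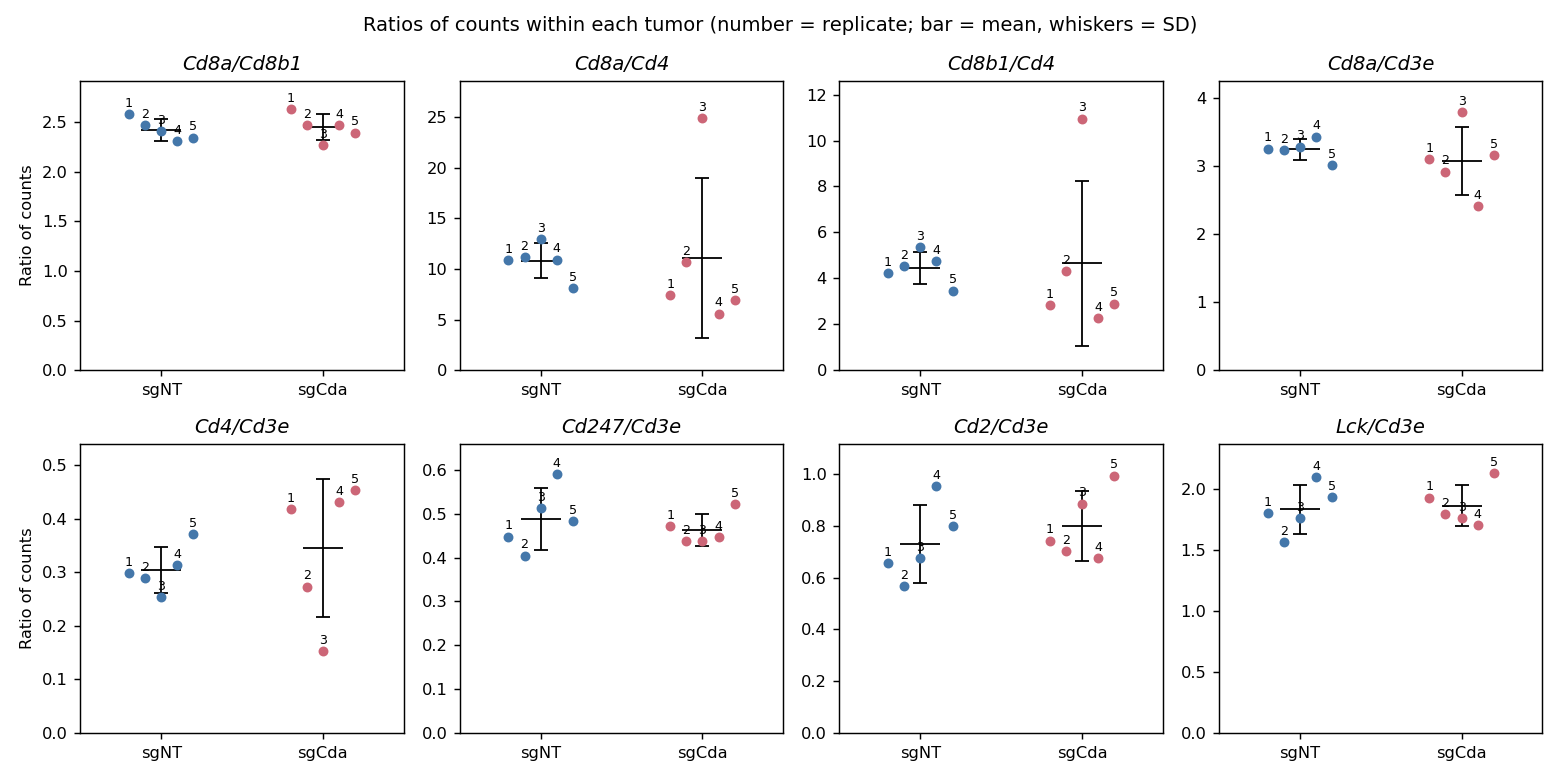
Ratio of counts of 2 genes within each tumor (vertical axes, from 0) for the 8 ratios tested; points are tumors with their replicate number, the bar is the mean and the whiskers the SD. Cd8a/Cd8b1 stays between 2.27 and 2.63 in all tumors, whereas Cd8a/Cd4 of sgCda 3 is 24.9 against 5.58 to 12.9 in the other tumors.

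Tumors with the sgCda guide were more unequal in these genes. The SD of log2 CPM was larger in sgCda than in sgNT tumors for 10 of 10 genes, by 1.65-fold (Cd4) to 4.17-fold (Cd5), with a median of 2.38. Without sgCda 3 it was still larger for 10 of 10, by 1.14-fold (Cd2) to 3.15-fold (Cd5), but the median was 1.72 and the SD of Cd8b1 in sgCda tumors went from 0.85 to 0.49. Over all genes tested the median was 1.44 and the SD was larger in sgCda for 77.5% of genes, and 15.9% of genes had a ratio above the median of the 10, so a larger spread was common in this series. Without sgCda 3 these 3 values were 1.21, 62.3% and 28.3%, and the difference in spread was not tested.

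Levels of different genes were compared per kilobase of the principal transcript. In the mean over 10 tumors Cd3g was highest at 61.8 CPM per kb, followed by Cd8a at 32.5, Cd8b1 at 28.4, Lck at 26.4, Cd3e at 21.6, Cd2 at 20.8, Cd3d at 19.98, Cd247 at 9.08, Cd5 at 5.18 and Cd4 at 3.03. Neighbours in this order were in the same order in every tumor except Cd8b1 and Lck (5 of 10 tumors), Cd3e and Cd2 (6 of 10) and Cd2 and Cd3d (7 of 10). When all annotated exons were merged instead, Cd8b1 and Cd8a were the highest and Cd3g took place 4. Cd8a exceeded Cd4 in both orders.

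Among the genes whose pattern over the 10 tumors was most like the mean standardized level of the 10 genes, out of 13259 candidates, were Ptprcap (r = 0.99), Zap70, Cd96, Fam78a, Gpr174, Gimap7, Sept1 and Wipf1 (r = 0.97). Zap70 encodes the kinase that binds the phosphorylated CD3 chains, CD96 is a receptor of T and NK cells, and Ptprcap encodes a partner of CD45. These r are descriptions of 10 libraries, which share the sgCda 3 value, and r without sgCda 3 was still 0.96 to 0.98 for the genes named.

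The wider pathway was described from lists of genes around the complex. In each list, 0 genes passed an adjusted p under 0.05. Over all genes tested, 8094 of 15299 estimates were above 0, and 7978 of 15377 without sgCda 3. Many listed genes moved with the same tumors, so the counts below are not of separate observations. Of the 6 TCR constant genes tested, 6 estimates were above 0, with a median of 0.30, and without sgCda 3 5 of 6 were, with a median of 0.12. The largest estimates belonged to γ chain genes at low levels. Tcrg-C1 had 0.63 (0.40 CPM in sgNT and 0.63 CPM in sgCda on average). Tcrg-C4 had 0.41 (0.46 and 0.62 CPM) and Tcrg-C2 had 0.31 (1.74 and 2.16 CPM). Trac, Trbc2 and Trbc1 of the αβ receptor had 0.12, 0.25 and 0.28. Trbc2, the most abundant, was at 21.3 ± 4.98 CPM (SD, n = 5) in sgNT and 25.2 ± 9.34 CPM (SD, n = 5) in sgCda tumors; Trbc1 and Trbc2 are near-identical and their reads may be split. Among 16 genes of proximal TCR signalling, 13 estimates were above 0 with a median of 0.10 (4 of 16 and −0.06 without sgCda 3), and among 10 inhibitors of the signal 6 were above 0 with a median of 0.09 (3 of 10 and −0.05).

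Among the 10 other T cell surface genes, 9 estimates were above 0 with a median of 0.14, against 3 of 10 and −0.12 without sgCda 3. The ligands of the receptor and coreceptors, which include the MHC class I genes H2-K1, H2-D1 and B2m, the class II genes H2-Aa and H2-Ab1 and Cd48, had a median of −0.08, 2 of 6 above 0; the same count was found without sgCda 3, with a median of −0.05. The naive and memory T cell genes had 6 of 8 above 0 and a median of 0.11 (4 of 8 and 0.01). Within these lists the smallest unadjusted p by edgeR belonged to Tcrg-C1 (0.175), Trat1, an adaptor that stabilizes the receptor (0.178), the lipid kinase gene Dgka (0.132), Cd7 (0.0585), H2-K1 (0.364) and Lef1 (0.0945). Cd7 was at 2.97 ± 0.759 CPM (SD, n = 5) in sgNT and 4.14 ± 1.07 CPM (SD, n = 5) in sgCda tumors, with overlapping groups. The most abundant genes of the same lists had log2 fold changes of 0.03 (Vav1), −0.012 (Ptpn6), 0.12 (Thy1), 0.03 (B2m) and 0.002 (Tcf7). Tcf7 did not follow the T cell genes here: its r with the mean standardized level of the 10 genes was −0.83. It was lowest in sgCda 3, at 52.0 CPM, so its fold change is not read as one of naive or memory T cells.

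The thymocyte genes Rag1, Rag2, Dntt and Ptcra had 0 of 4 genes tested, with summed levels of 0 to 0.475 CPM.

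Other cells that could carry these transcripts were measured beside them. The 7 NK cell markers summed to 25.1 to 44.3 CPM (sgNT) and 27.7 to 52.4 CPM (sgCda). Their sum moved with Cd3e (r = 0.80, permutation p = 0.00486, adjusted p = 0.0324 over 20 relations computed after the data were seen). By rank, rho was 0.70, with a permutation p of 0.0308 and an adjusted p of 0.154. The r of the sum was 0.67 without sgCda 3 and 0.60 without the 2 farthest tumors. Single NK markers were uneven in their r with the mean standardized level of the genes described here. It was 0.84 for Klri2 and 0.96 for Klre1, the most abundant markers, and 0.63 for Eomes. For Klrb1c, Klra8 and Ncr1 it was 0.45, 0.14 and −0.077, and Khdc1a did not pass the filter on low counts. The 8 macrophage markers had r = 0.76 with Cd3e (permutation p = 0.0102, adjusted p = 0.0510, both for r, with rho = 0.72), and r = 0.83 without sgCda 3. The 7 markers of conventional type 1 dendritic cells, some of which carry CD8α, had r = −0.12 with Cd3e (rho = 0.04; r = 0.47 without sgCda 3), and sgCda 3 had the lowest sum of them, 367 CPM. Cd8a was highest in that same tumor. Single markers of this list were uneven. Cadm1, Tlr3 and Itgae were lowest in sgCda 3, where Cadm1 alone stood at 175 CPM. Xcr1, Clec9a, Wdfy4 and Batf3 were lower in sgNT 4 than in sgCda 3 (Wdfy4 at 83.4 and 92.6 CPM). The lowest sum is therefore not read as the fewest of these dendritic cells, and their part in the level of Cd8a was not tested.

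B cell markers summed to 4.49 to 7.55 CPM, and the lymph node stroma markers to 0.443 to 1.91 CPM, of which Cxcl13 alone passed the filter on low counts. Rag1 was at 0 in every tumor. Skeletal muscle markers summed to 5.75 to 516 CPM in sgNT and 5.60 to 2070 CPM in sgCda tumors. All 8 estimates were above 0, with a median of 1.66 (0.28 without sgCda 3). Their r with Cd3e was 0.73 (adjusted permutation p = 0.0536 for r, with rho = 0.65), and 0.60 without sgCda 3. Markers of γδ and IL-17 T cells were above 0 in 2 of 5 genes tested with a median of −0.06 (4 of 5 and 0.03 without sgCda 3). Those of plasmacytoid dendritic cells, some of which carry CD4, were above 0 in 6 of 6 with a median of 0.21. Without sgCda 3 this was 6 of 6 and a median of 0.30. The estimates were uneven: Siglech 0.027, Ccr9 0.026, Klk1 0.11, Ly6d 0.31, Tcf4 0.37 (unadjusted p = 0.0105 by edgeR) and Cox6a2 1.45. Mean levels (sgNT, then sgCda) were 114 and 147 CPM for Tcf4, against 2.34 and 2.39 CPM for Siglech. Cox6a2 was highest in sgCda 3, at 19.4 CPM, where the skeletal muscle markers were also highest. No rise of plasmacytoid dendritic cells is read from these estimates. The part of these cells in the levels of the 10 genes was not tested.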

How the data were processed

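Polyadenylated RNA of whole tumors was made by the authors into stranded libraries, aligned to GRCm38 (mm10) with TopHat and Bowtie2 and counted per Ensembl gene with HTSeq, according to the study's methods and the submitters' processing notes (FastQC 0.11.5); the strand setting is not given in the sources used here. The deposited values are raw counts, one column per tumor, with no normalization. The 5 HTSeq summary rows were dropped. Reads that overlapped no annotated feature were 10.3% to 18.4% of the assigned, no-feature and ambiguous reads together. The titles of the samples gave group and replicate.

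The counts were filtered with filterByExpr (minimum count 10, minimum total 15), scaled by TMM and tested with edgeR 4.0.16 (glmQLFit and glmQLFTest, R 4.3.3), p-values adjusted by the Benjamini-Hochberg method over 15299 genes. Correlations used log2 CPM with a prior count of 2 and 100000 resamples. Ratios had 0.5 added to each count. Promoters came from RefSeq, positions from GENCODE. The code was tested on simulated data.

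Named genes were the 10 members, Cda, the gene with the smallest p and the one with the largest mean CPM of each list, and the 10 genes most alike, of which a few are not reported here; others are named as members of a list. For the lists the text describes, most are given by counts and medians only. The members and lists were chosen with earlier results of these data known. Alternatives were DESeq2 1.42.0, limma-voom (limma 3.58.1), other scalings and filters, a replicate block and removal of each tumor; the relations to other cell types, the lists and the spread without sgCda 3, and the merged-exon lengths were added after the data were seen.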

Additional observations from a re-analysis of the deposited data

Results flagged for a closer look

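Of 36 groups of 5 values examined (levels of the 10 genes and 8 ratios in each group), 6 held a distant tumor. In these, the gap to the nearest other tumor, divided by the range of the 5 values, exceeded Dixon's 95% critical value of 0.71. Chance gives about 1 in 20 groups, or 1.8 here. In sgNT tumors, replicate 3 lay far above the other 4 for Cd3e (41.1 CPM, others 26.0 to 28.8), Cd3g (83.3 CPM, others 51.2 to 58.5), Cd8a (135 CPM, others 78.5 to 93.1) and Cd8b1 (56.0 CPM, others 33.5 to 39.5). These genes are correlated, so the 4 are not separate observations. In sgCda tumors, replicate 3 lay far above the others for Cd8a over Cd4 (24.9, others 5.58 to 10.7) and for Cd8b1 over Cd4 (10.95, others 2.26 to 4.32).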

How the results depend on the processing

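No gene passed an adjusted p under 0.05 in any of the 17 alternatives, and 0 of the 10 members had an unadjusted p under 0.05 in any; 382 genes at an unadjusted p became 830 with a filter of 1 count and 280 to 747 when a tumor was left out, the highest without sgCda 3. When each tumor was left out, log2 fold changes ran from −0.24 to 0.33 (Cd3d), −0.17 to 0.28 (Cd3e), −0.25 to 0.25 (Cd3g), −0.25 to 0.18 (Cd247), −0.33 to 0.27 (Cd8a), −0.38 to 0.28 (Cd8b1), 0.027 to 0.18 (Cd4), −0.10 to 0.41 (Cd2), −0.18 to 0.17 (Cd5) and −0.13 to 0.26 (Lck), and their median from −0.21 to 0.26. Log2 ratios ran from −0.012 to 0.041 (Cd8a/Cd8b1), −0.52 to 0.016 (Cd8a/Cd4), −0.56 to 0.0053 (Cd8b1/Cd4), −0.17 to −0.0061 (Cd8a/Cd3e), −0.041 to 0.35 (Cd4/Cd3e), −0.13 to 0.0047 (Cd247/Cd3e), 0.054 to 0.24 (Cd2/Cd3e) and −0.028 to 0.077 (Lck/Cd3e). With limma-voom, Cd3g was −0.021, Cd247 −0.019, Cd8a −0.072, Cd8b1 −0.063 and Cd5 −0.015; with the filter of 1 count Cd247 was −0.00098. The cause of these changes of sign was not tested. The correlations of the 8 genes with Cd3e stayed at 0.71 to 0.99 over the 15 alternatives of each, and that of Cd4 ran from −0.013 to 0.54 when a tumor was left out.

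The labels do not say whether same-numbered tumors of the 2 groups were paired. Their deviations from the group means had correlations of −0.03, −0.02, 0.33, −0.43 and 0.34, which are too mixed to decide it. With a replicate block, Cd3g was −0.026, Cd247 −0.044, Cd8a −0.069, Cd8b1 −0.081 and Cd5 −0.035, the median of the 10 was −0.0052, 325 genes had an unadjusted p under 0.05 and 0 an adjusted one; the sign-flip test of the ratios, whose smallest p is 0.0625, gave p of 0.5 to 0.8125. With 5 tumors a group, intervals of 0.58 to 1.59 log2 units in width limit what could be seen.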
